A study of Caenorhabditis elegans with 2 samples.

Results

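Genes for RNA polymerase subunits, TBP with its associated factors (TAFs) and Mediator subunits were examined for occupancy by TBX-7 in embryos of the nematode Caenorhabditis elegans. They were found by symbol among 19973 protein-coding genes of WBcel235 (ce11): every gene whose symbol begins with rpb-, rpoa-, rpac-, rpc-, mdt-, taf-, tbp- or ama-, together with cdk-8, cic-1, dpy-22, let-19, let-49, sop-3 and lin-25. This gave 67 genes. By symbol, 12 were placed with RNA polymerase II, 4 with RNA polymerase I, 2 with subunits shared by RNA polymerases I and III, 4 with RNA polymerase III, 18 with TBP and TAFs, 23 with the Mediator core and 4 with the Mediator kinase module. The first class includes rpb-5, rpb-6, rpb-8, rpb-10 and rpb-12, whose products are subunits common to all the nuclear RNA polymerases. Subunit genes that carry other symbols were counted among the other genes.

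RNA polymerase II transcribes messenger RNA genes, RNA polymerase I the large ribosomal RNA precursor, and RNA polymerase III transfer RNA and other short RNA genes. TBP and the TAFs form TFIID, which binds the core promoter and helps to place RNA polymerase II at the start site. Mediator links DNA-bound activators and repressors to RNA polymerase II, and its kinase module binds reversibly to the core. These genes are needed in most cells, and mutants of several worm Mediator genes were first found through defects in development and signalling.

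Chromatin was immunoprecipitated and sequenced (ChIP-seq) from whole late embryos of hermaphrodite strain OP311, in which a transgene supplies the T-box transcription factor TBX-7 with GFP and FLAG at its C terminus. Eggs were bleached to synchronize them and the embryos taken 3 h later. The sample descriptions say that the pull-down used an anti-GFP antibody, and the antibody field of the labels gives tbx-7, which was read as the tagged target. The design had 1 group with 2 biological replicates, both carrying the transgene, so no condition could be compared with another. A whole embryo mixes tissues, so a peak cannot be placed in a cell type. An anti-GFP pull-down is directed at the tagged protein, so the lists do not show where any native TBX-7 binds.

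A promoter was taken as the 1000 bp before a gene start and the 200 bp after it, and a gene had a peak when a summit, the highest point of a peak, lay in that window. The final list held 690 peaks that were reproducible between replicates by their irreproducible discovery rate (IDR), with signal from 86 to 1660 and a median of 134. Signal and −log10 q are the authors' own values, set within each list, and the IDR step had kept the strongest peaks of a longer list made on both replicates together (8759 peaks). The lists made before the IDR step on replicate 1 and replicate 2 held 16060 and 9840 peaks. Read depth is not known from the lists. Positions are 1-based and on ce11.

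Of the 67 genes, 6 had a final summit in the promoter: the Mediator genes mdt-8, mdt-9 and mdt-26, the TAF genes taf-7.2 and taf-12, and the RNA polymerase I gene rpoa-12. This is 8.96% of the members (exact 95% interval 3.36 to 18.5%, covering counting error only), against 3.12% of all protein-coding genes (623 genes). When each summit was given only to its nearest gene start, at any distance, 3 members were left (4.48%), against 3.26% of all genes. By that count the members were near the background. It applied no promoter window, so 3.26% also holds genes whose nearest summit lay outside their promoter. The share of all genes by nearest start within the promoter window was not counted. All 12 genes of the RNA polymerase II class, both shared RNA polymerase I and III genes, all 4 RNA polymerase III genes and all 4 kinase module genes had no final summit. At a share of 3.12% few genes would be reached in classes this small, so having none does not set these classes apart. The 6 summits were all different. Each was matched by a summit at most 100 bp away in each replicate list, as were 664 of all 690 final peaks (96.2%). The difference in share was not tested, since the members were chosen with results of these data known.

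The sequence around 4 of these summits is printed here, 50 bp to either side where no untranslated region is annotated, to show how unlike the summits are in the words they hold. Capitals mark the 10 six-base words, read on both strands, that were most in excess at all 690 final summits over flanks 500 bp away. The windows of both TAF genes hold several such words, that of mdt-26 holds 1, and that of mdt-8, the strongest of the peaks, holds none.
taf-7.2 (III:12673512-12673612, plus strand): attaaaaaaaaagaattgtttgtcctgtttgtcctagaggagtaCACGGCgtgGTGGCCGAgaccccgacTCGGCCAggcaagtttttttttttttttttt
taf-12 (III:11870140-11870240, plus strand): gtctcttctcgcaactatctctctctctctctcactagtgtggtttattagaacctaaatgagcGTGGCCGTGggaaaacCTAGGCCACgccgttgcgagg
mdt-26 (II:5661134-5661180, plus strand, upstream of the gene start only): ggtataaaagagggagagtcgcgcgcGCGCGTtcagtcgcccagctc
mdt-8 (II:11534738-11534838, plus strand): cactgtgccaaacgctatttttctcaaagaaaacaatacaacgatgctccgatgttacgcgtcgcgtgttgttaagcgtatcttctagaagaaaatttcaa

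The taf-7.2 and taf-12 windows share CGGCCA and GGCCAC and also CACGGC, and taf-12 holds GGCCTA and AGGCCA and also CTAGGC, while taf-7.2 holds GGCCGA. These words overlap each other by several bases, so they are not separate observations. CGGCCA occurred in 18.7% of the 690 summit windows and 1.74% of the flanks, and GGCCAC in 19.3% of summit windows and 3.04% of flanks. In whole promoters of all protein-coding genes, which are longer windows, CGGCCA occurred in 18.5% and GGCCAC in 17.1%. The mdt-26 window held ACGCGC, which occurred in 12.6% of summit windows, 1.16% of flanks and 15.8% of promoters.

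At least 1 of the 10 words was found in 3 of the 6 member windows, against 53.3% of all final summit windows and 12.6% of flanks. The words were chosen on the same 690 summits, so these shares only describe them. The windows of rpoa-12, mdt-9 and mdt-8 held none. The T-box words AGGTGTGA and GGTGTGA and the short core GGTGT, each read on both strands, were in 0 of the 6 member windows. The longer words AGGTGTGA and GGTGTGA were in 0 of all 690 final windows as well, so their absence is no trait of the members. At all final summits GGTGT was in 17.2% of windows and 8.41% of flanks, and it is common enough to occur in 70.8% of promoters. The G and C content of the windows ranged from 38.6% at mdt-9 to 62.4% at mdt-26, around a median of 48.5% for all final summits.

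The general initiation factor TFIID had a peak at 2 of its 18 genes, against 3.12% of all protein-coding genes. The gene taf-7.2, 1 of a pair of worm genes for TAF7, had a peak at III:12673472-12673607 with signal 231 and rank 118 of 690. Its summit lay 139 bp upstream of taf-7.2 and 115 bp upstream of elpc-2, a gene of the Elongator complex on the opposite strand, in intergenic sequence between them. In the replicate lists the matched peak had signal 116 and rank 129 in replicate 1, and signal 114 and rank 104 in replicate 2. Both replicate summits lay 7 bp from the final one.

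The gene taf-12 encodes a histone-fold TAF. Its peak, at III:11870102-11870231, had signal 170 and rank 219 in the final list. The summit lay 909 bp upstream, near the far edge of the promoter window, and no other protein-coding promoter held it. Replicate 1 gave signal 80.5 and rank 280, and replicate 2 gave signal 88 and rank 184, with summits 886 and 932 bp upstream. The next gene upstream on the same strand ended 1970 bp from taf-12.

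The other 16 genes of TBP and the TAFs had no final summit. The gene for TBP itself, tbp-1, had no summit in any of the 4 lists, and its nearest final summit was 136811 bp away. The same absence of summits held for taf-1, which encodes the largest TAF. The gene taf-7.1, the other TAF7 gene, also had none, unlike taf-7.2, whose final summit lay nearer to the start of elpc-2. When each summit was given only to its nearest gene start, neither TAF7 gene had a final summit. The closest to the final list was taf-11.1, with a summit 130 bp upstream of signal 61.4 and −log10 q of 1.18 in the list of both replicates. In replicate 1 its −log10 q was 1.89 and in replicate 2 it was 0.18.

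The Mediator core had peaks at 3 of 23 genes, against 3.12% of all protein-coding genes, and these included the strongest peak of all members. For mdt-8, which encodes a subunit of the head, the peak at II:11534566-11535009 had signal 327 and rank 53 of 690. Its summit lay 972 bp upstream of mdt-8 but 309 bp upstream of Y62F5A.12, a gene on the same strand whose end is 109 bp before mdt-8. Replicate 1 gave signal 175 and rank 59, and replicate 2 gave signal 150 and rank 46, with summits 993 and 953 bp upstream of mdt-8. The gene nearest to this peak is therefore Y62F5A.12, and mdt-8 follows it.

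The genes mdt-26 and mdt-9 had weak final peaks. At mdt-26 the peak (II:5660962-5661405) had signal 94.2 and rank 596, and its summit lay 3 bp inside the gene, in the 5′ untranslated region, and 398 bp upstream of ift-43, an intraflagellar transport gene on the opposite strand. Replicate 1 placed the summit 61 bp upstream of the start (signal 42.5, rank 817) and replicate 2 placed it 24 bp inside the gene (signal 56.5, rank 430). This was the widest spread between replicates among the 6 genes.

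At mdt-9, a gene for a subunit of the middle part of Mediator, the peak (IV:13385993-13386436) had signal 91.6 and rank 625. Replicate 1 gave signal 44.3 and rank 773, and replicate 2 gave signal 53.6 and rank 468. The summit lay 165 bp upstream of mdt-9, 109 bp upstream of Y62E10A.23, 124 bp upstream of Y62E10A.20 and 988 bp upstream of lsm-3, a gene for an Sm-like protein of RNA processing. Of these, Y62E10A.20 lies on the opposite strand and the others on that of mdt-9.

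The gene rpoa-12 encodes a small subunit of RNA polymerase I. Its peak (V:14423203-14423646) had signal 168 and rank 224, with the summit 121 bp upstream. Replicate 1 gave signal 88.8 and rank 230, and replicate 2 gave signal 78.9 and rank 228, so the 3 ranks were close. The same summit lay 807 bp upstream of pas-1, a gene for an alpha subunit of the proteasome core on the same strand, which follows rpoa-12. Upstream, the gene rrsr-1 ends 479 bp before rpoa-12, and the summit lies in the gap between them.

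**Figure D1:**
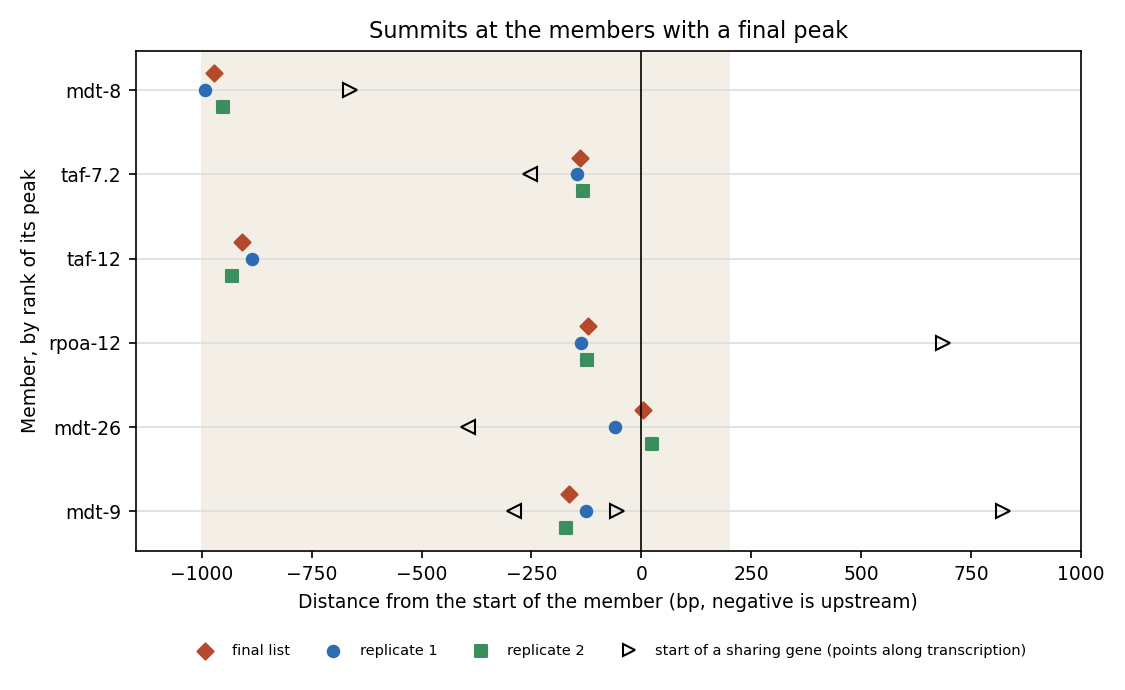
Position of the summit (bp from the start of the gene, negative is upstream) at the 6 genes with a final peak, for the final list and each replicate, with open triangles at the starts of the other protein-coding genes whose promoters hold the same summit and shading over the promoter window. The replicate summits lie between 3 and 64 bp from the final ones, and mdt-8 and taf-12 have theirs 972 and 909 bp upstream.

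By rank, the 6 peaks covered most of the final list without reaching its top, from 53 to 625 of 690. Their signal ran from 91.6 to 327, in a list that ran from 86 to 1660, so they covered only the lower part of its signal range. The median signal was 169, against 134 for all 690 peaks. The peaks of mdt-8, taf-7.2, taf-12 and rpoa-12 reached the highest −log10 q that the list contains, 2.97, while mdt-26 had 2.38 and mdt-9 had 2.25. The order of the first pair, mdt-8 before taf-7.2, held in both replicates, whereas taf-12 and rpoa-12 changed places, with rpoa-12 ahead in replicate 1 and taf-12 ahead in replicate 2. The small RNA gene nearest to any of these summits (tRNA, snRNA, snoRNA or rRNA) was 2494 bp away, at mdt-8, and the others were at least 39763 bp away.

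**Figure D2:**
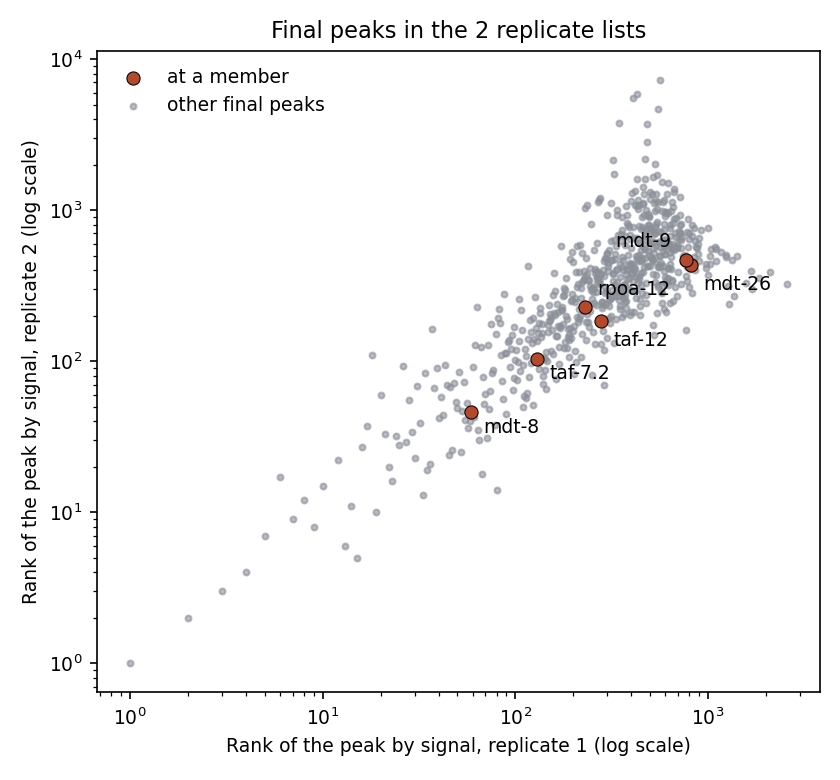
Rank by signal in replicate 1 and replicate 2 (log scales) of the 664 final peaks matched within 100 bp in both replicate lists, with the 6 peaks at members in red. The member peaks lie within the cloud of other final peaks, from mdt-8 at ranks 59 and 46 to mdt-26 at 817 and 430.

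Most of the 6 summits were not private to a member. Of the 6, 5 lay in the promoters of 2 or more protein-coding genes (83.3%), against 197 of the 435 final summits in promoters (45.3%). The exception was taf-12. The 45.3% is a share of summits, whereas the 6 were reached through genes. A summit in several promoters is more easily reached that way, so 45.3% understates the like background. The share per gene was not counted, and sharing is not shown to be a trait of the members. For mdt-26, taf-7.2 and mdt-9 a start on the opposite strand lay within reach, which is 50% of the 6, against 52% of the 623 genes with a final summit. Over all 67 members such a start lay in the promoter of 26.9%, against 18.1% of all genes. For mdt-8 and rpoa-12 the sharing gene was a same-strand neighbour. The nearest protein-coding start to the summit was the member itself for mdt-26, taf-12 and rpoa-12, but elpc-2 for taf-7.2, Y62E10A.23 for mdt-9 and Y62F5A.12 for mdt-8. A summit between 2 starts does not show which gene it serves.

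Genes in these families often lie in tight same-strand runs. With gaps of at most 500 bp between neighbours, 29 of 67 members (43.3%) followed another protein-coding gene on their strand, against 20% of all protein-coding genes. Worm genes so arranged are often, though not always, transcribed together from the promoter of the first gene, and the annotation used here does not say which runs are operons. Of the 29 downstream members 3 had a final summit in their own promoter window (10.3%, against 2.22% of all downstream genes), and of the 38 others 3 did (7.89%, against 3.34%). Overlapping neighbours were counted as downstream too, as for mdt-9, whose gap to Y62E10A.23 was −466 bp.

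A further 3 members were reached only through the first gene of their run. The gene rpc-2, for the second-largest subunit of RNA polymerase III, follows hach-1, whose promoter held a peak (III:5554906-5555349, signal 137, rank 330) 322 bp upstream of hach-1 and 2237 bp upstream of rpc-2. The Mediator gene mdt-11 follows wip-1, with a peak of signal 134 and rank 345 (III:5018051-5018494) 366 bp upstream of wip-1. The Mediator gene mdt-10 is the third gene of a run headed by the chromodomain gene cec-3, with a peak of signal 107 and rank 486 (II:7857542-7857985) 164 bp upstream of cec-3. These peaks ranked 365, 323 and 778 in replicate 1 and 317, 338 and 340 in replicate 2. If they are counted the members reach 9 (13.4%), against 4.35% of all genes counted the same way.

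One more member, mdt-18, had a final summit only at a transcript start inside the gene. It lay 148 bp upstream of that start and 1258 bp downstream of the gene start (I:6493773-6494216, signal 135, rank 341). With the starts of all transcripts counted, 7 members had a final summit (10.4%), against 3.36% of all genes. No final summit was found in the 500 bp beyond either edge of the promoter window of any member.

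In the lists made before the IDR step, which are permissive and mostly hold weak peaks, more members had a summit in the promoter. The list of both replicates had 23 of 67 (34.3%, against 15.8% of all genes), replicate 1 had 27 (40.3%, against 24.7%) and replicate 2 had 22 (32.8%, against 16.3%). In 33 members no summit lay in the promoter in any of these 3 lists, and in 15 members a summit lay there in all 3, including all 6 with a final peak. The like shares of all genes were not counted, so these 2 counts only describe the members. The summits of the 15 were not matched by position: at mdt-17 they lay 39, 269 and 53 bp upstream in the list of both replicates, replicate 1 and replicate 2. With −log10 q of at least 2, the counts were 8 members (11.9%, against 3.71% of all genes) for both replicates, 9 (13.4%, against 4.14%) for replicate 1 and 6 (8.96%, against 2.82%) for replicate 2. The 3 lists share reads, since the list of both replicates was made from the same alignments, so these counts are not independent of each other.

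**Figure D3:**
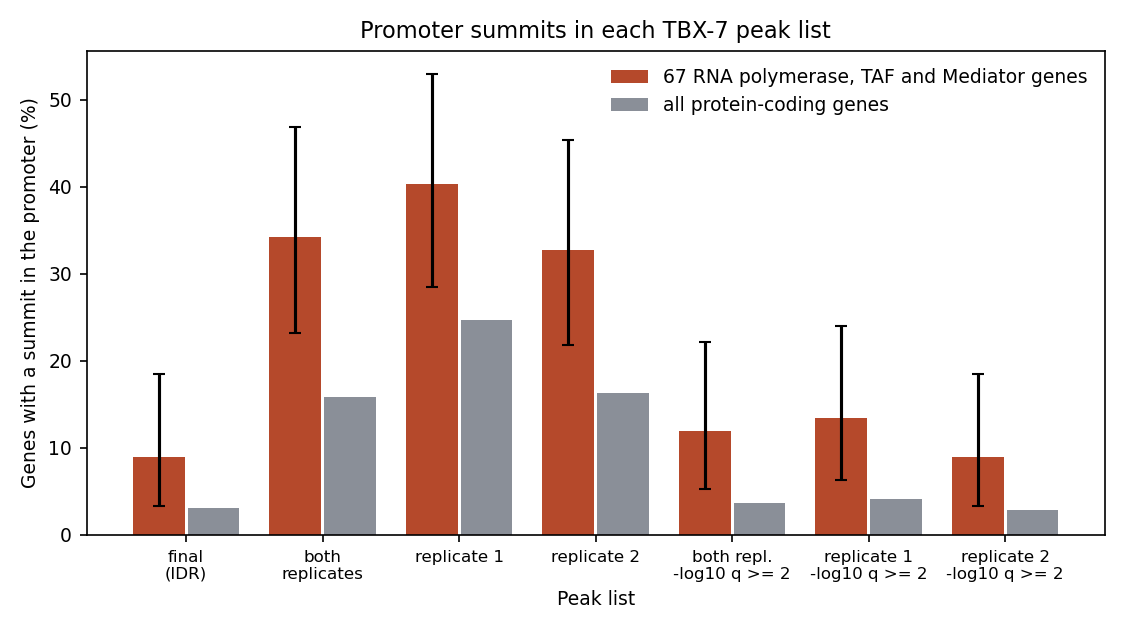
Share of genes with a summit in the promoter (%) in each peak list, for the members (red, with exact 95% intervals) and for all protein-coding genes (grey), counting a summit for every promoter that holds it, with all peaks and with peaks of −log10 q of at least 2. The members stand at 8.96% in the final list, against 3.12% of all genes, and at 40.3% in the list of replicate 1, against 24.7%.

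The 17 members with a summit in the list of both replicates but no final peak had weak summits, with signal from 33 to 81, a median of 43.6, and −log10 q below 1 in 11 of them. The strongest was at rpb-11, for a subunit of RNA polymerase II that pairs with the rpb-3 product. Its summit lay 134 bp upstream (II:14059729-14060172), with signal 81, −log10 q 2.23 and rank 764, where the final list ended at rank 690. Replicate 1 gave −log10 q 2.03 and replicate 2 gave 1.57, with summits 135 and 130 bp upstream.

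The next was mdt-19, with signal 74.7 and −log10 q 2.01 (III:2597066-2597509), 765 bp upstream and shared with apb-1, a beta adaptin gene. The Mediator gene sop-3, a relative of MED1, differed between replicates. In replicate 1 its summit 150 bp upstream had −log10 q 2.47 and rank 745, while in replicate 2 a summit 130 bp upstream had −log10 q 0.02 and rank 9801, near the end of that list. The gene mdt-6, for a head subunit, had signal 69.8 and −log10 q 1.78 in the list of both replicates, and rpac-19, for a subunit shared by RNA polymerases I and III, had 66.6 and 1.56.

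The genes for the large catalytic subunits had weak summits or none. The gene for the largest subunit of RNA polymerase II, ama-1, had a summit of −log10 q 0.27 in the list of both replicates, 408 bp upstream. In replicate 1 a summit elsewhere, 183 bp upstream, had −log10 q 0.88, and replicate 2 had none. For the second-largest, rpb-2, no list had a summit in the promoter. Of the RNA polymerase I genes, rpoa-1 had −log10 q 0.05 in the list of both replicates and 0.09 in replicate 2, and rpoa-2 had 0.12 in replicate 1 alone. The RNA polymerase III genes rpc-1 and rpc-2 had none in any list. In the kinase module only dpy-22, the MED12 gene, had a summit, with −log10 q 0.02 in the list of both replicates and 0.25 in replicate 1, while cdk-8, cic-1 and let-19 had none in any list.

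**Figure D4:**
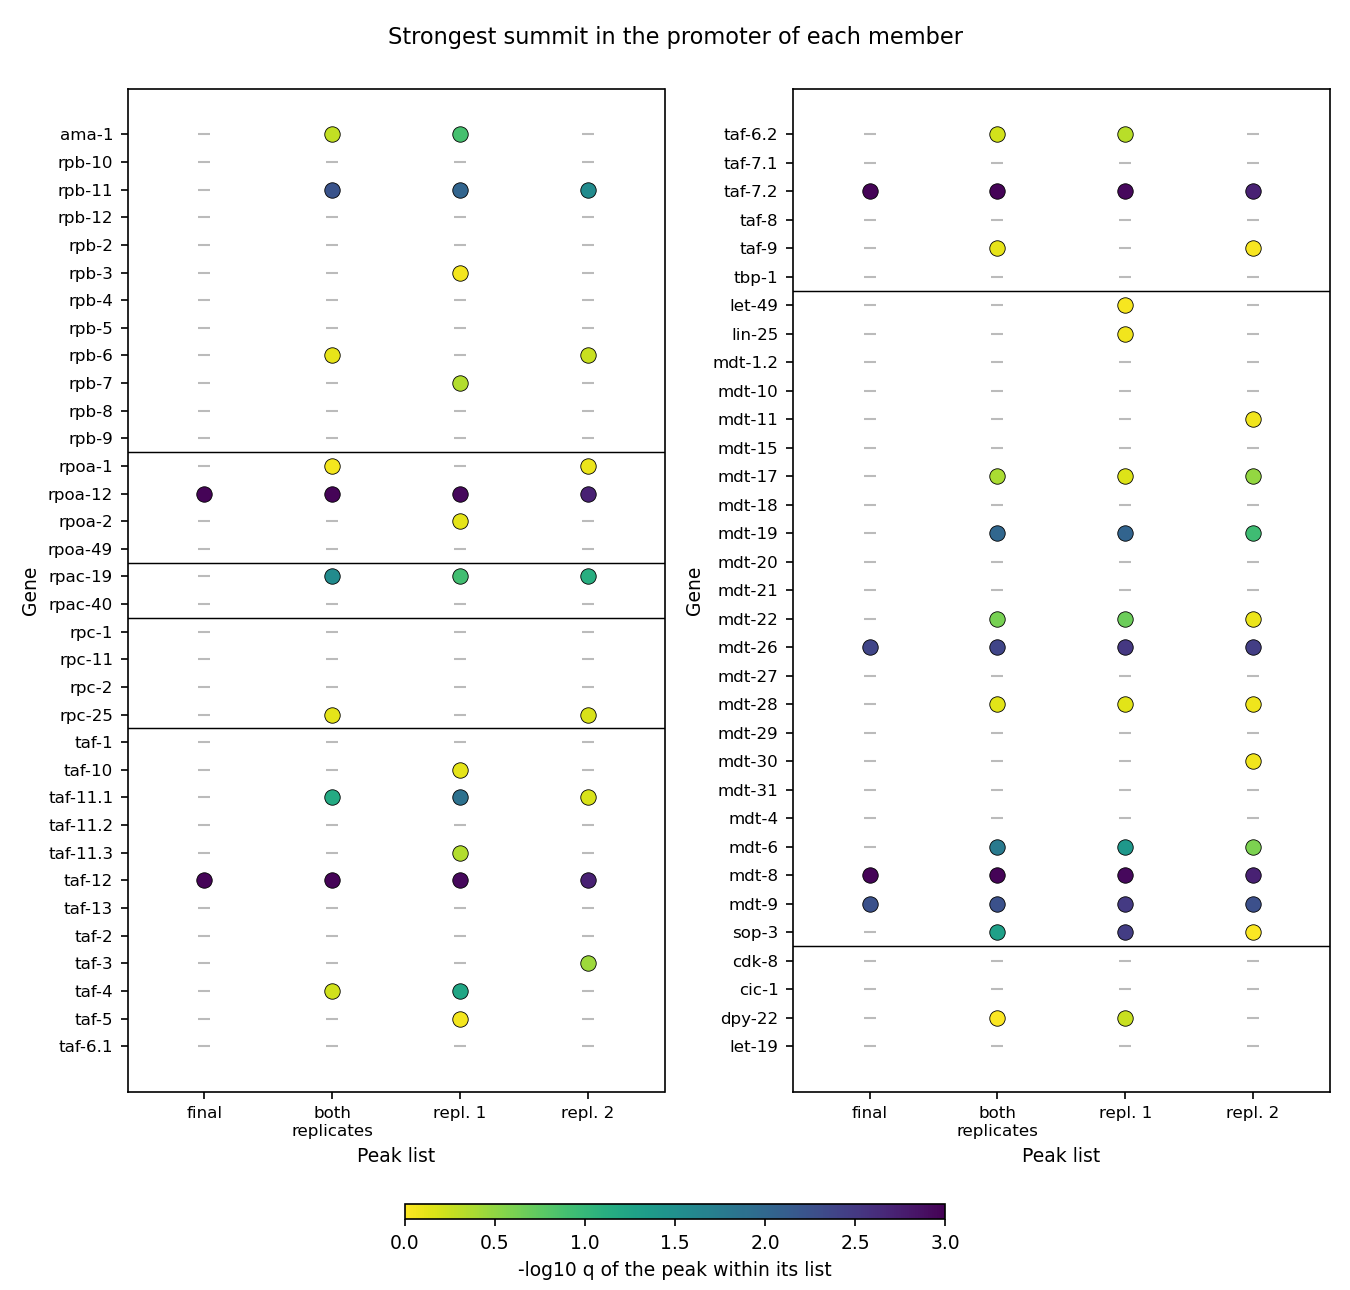
Each of the 67 members by class, with a dot where a list has a summit in the promoter, coloured by the −log10 q of the strongest such peak within that list, and a dash where it has none; lines divide the classes. Dark dots run across all 4 lists at the 6 genes with a final peak, and rpb-11 and mdt-19 are the next darkest in the list of both replicates.

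Members were spread over the chromosomes, with 14 on I, 14 on II, 16 on III, 8 on IV, 10 on V and 5 on X. Those with a final summit numbered 2 on II, 2 on III, 1 on IV and 1 on V, and none on I or X. The like shares of all genes were not counted by chromosome, so these numbers only describe the members. The median distance from the start of a member to the nearest final summit was 44496 bp, against 57738 bp for all protein-coding genes. Within 5000 bp lay a final summit for 11 members (16.4%, against 8.29% of all genes), and within 20000 bp for 20 (29.9%, against 23.5%).

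Other genes of the transcription machinery gave a share close to that of the members when a summit was counted for every promoter that held it. By nearest gene start the members fell to 4.48%, and the share of these other genes was not counted that way. Of 62 such genes 6 had a final summit (9.68%, exact 95% interval 3.63 to 19.9%), against 3.12% of all protein-coding genes. The general initiation factors of RNA polymerase II gave 1 of 18, the gene ttb-1 for TFIIB (signal 161, rank 236, summit 564 bp upstream). The elongation, capping and termination factors gave 3 of 22: cdc-73 and pafo-1 of the PAF1 complex (signal 182 and 95.4, summits 145 and 122 bp upstream), and the kinase gene cdk-9 (signal 95.8, summit 179 bp upstream), whose summit is shared with the hexokinase gene hxk-2. The Integrator complex, which cleaves nascent RNA, gave 2 of 11: ints-8 (signal 126, 63 bp upstream) and ints-4 (signal 117, 43 bp inside the gene). The initiation factors of RNA polymerase III and of small nuclear RNA genes gave 0 of 11, too few genes to set apart from a share of 3.12%.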

How the data were processed

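The ce11 peak lists used are narrowPeak tables: the final list, 1 list of both replicates and 1 list of each replicate. Per the metadata deposited with the samples, each replicate list was made from the alignment of that replicate and a control file, the list of both replicates from both alignments and the control, and the final list from the other 3. The aligner and the caller are not given in the sources used here, nor is the depth. Column 7 holds the signal as deposited by the authors, and column 9 the −log10 q as deposited by the authors. The ce10 lists were not used.

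Summits (column 2 plus column 10) were placed on Ensembl release 115 genes and the RefSeq WBcel235 sequence, with pandas 2.3.3 and pyfaidx 0.9.0.4. Placement was tested on simulated summits. No test of significance was run, since the design holds 1 group, and exact 95% intervals (scipy 1.17.1) cover counting error only. Members and lists were chosen with earlier results of these data known. Named were every member with a final summit or with −log10 q of at least 2, the large subunits and TBP, and bound pathway genes. The remaining named genes (taf-1, taf-7.1, taf-11.1, mdt-6, rpac-19, the kinase module genes, and mdt-10, mdt-11 and mdt-18, which alternatives reached) were chosen after their values were seen. Alternatives covered promoter windows, gene starts, peak strength, replicates and word windows.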

Additional observations from a re-analysis of the deposited data

How the results depend on the processing

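The count of 6 members ran from 3 to 9 over 11 alternatives, 10 of them within 1.5 times. It was 3 (mdt-26, taf-12 and rpoa-12) when each summit went only to its nearest gene start, against 3.26% of all genes. That count set no limit on the distance, so its background is not that of a promoter count. With 500 bp upstream to 100 bp downstream, mdt-8 and taf-12 were lost (5.97% of members left, against 2.46% of all genes). Among the 345 strongest final peaks mdt-26 and mdt-9 were lost (5.97% left, against 1.88% of all genes). With the 690 strongest peaks of one replicate in place of the final list, the count was 4 to 6. Without replicate 2, mdt-26 and mdt-9 were lost (5.97% left, against 3.09% of all genes). Without replicate 1 none was lost (8.96%, against 2.99%). Limiting the lists made before the IDR step to −log10 q of at least 2 gave 8 members for both replicates, 9 for replicate 1 and 6 for replicate 2. Matching within 50 bp left 5 of the 6 summits in both replicates. With words sought up to 100 bp from the summit, 4 of the 6 held 1 of the 10 words, against 63.9% of all final windows. No paired analysis was possible because there is 1 group. The lists carry no read depth, so the absence of a peak does not show absence of binding.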
